A study of Mus musculus with 48 samples.

Results

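The enzymes described here write or remove methyl groups on histones and DNA, or remove acetyl groups from histones. They were taken from the deposited table as every gene whose symbol begins with Kdm, Kmt, Setd, Prdm, Hdac, Dnmt or Tet followed by a number, together with *Ehmt1*, *Ehmt2*, *Suv39h1*, *Suv39h2*, *Nsd1* and *Dot1l*. This gave 68 of the 16510 genes in the table. The symbols alone chose the members, and no measured value did. Not every member is an enzyme: several Prdm proteins are zinc finger transcription factors with little or no known methyltransferase activity, and *Setd3* is known as an actin methyltransferase.

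The study profiled single cells of the mouse hypothalamus at E18.5 to ask what loss of *Eed* does to its cells. *Eed* encodes a core subunit of polycomb repressor complex 2 (PRC2), which places methyl groups on lysine 27 of histone H3 (H3K27). Control embryos were *Eed* fl/fl and carried no Cre. Eed-cKO embryos were *Eed* fl/fl with 1 copy of Sox1-Cre, a Cre inserted in the *Sox1* gene that acts in the whole early central nervous system, so that they also carried an altered *Sox1* allele that controls lacked. There were 6 control embryos (2 female, 4 male) in 22 libraries and 9 Eed-cKO embryos (5 female, 4 male) in 26 libraries. Hypothalami were divided into pieces before dissociation, each library came from 1 embryo, and the embryo was the replicate. The leading part of the library names, read as the litter, gave 4 control and 6 Eed-cKO litters with no litter in both genotypes, so litter and genotype cannot be told apart.

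Methylation of H3K4 and H3K36 marks active genes, whereas methylation of H3K9, H3K27 and DNA is linked to silent ones. Demethylases of the Kdm family remove these marks with iron and oxygen or with a flavin, Tet dioxygenases oxidise methylated cytosine, and Hdac proteins remove the acetyl groups that open chromatin. *Kdm6a* and *Kdm6b* remove the H3K27 mark that PRC2 writes. In developing neural tissue several Prdm genes have narrow patterns, with *Prdm12* and *Prdm13* in restricted neuronal lineages and *Prdm16* in progenitors and glia.

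Values are counts of unique molecular identifiers (UMIs), random tags that let each captured RNA molecule be counted once, read from the 3′ end of transcripts. Levels are counts per 1000000 UMIs of the cells summed in an embryo (CPM), scaled by TMM, and are compared between samples and not between genes. The table held 14121 cells, of which 13294 fell outside the clusters named non-neural and are called All-Hypo (6839 control, 6455 Eed-cKO). They include 2504 cells of clusters that took no name (1164 control, 1340 Eed-cKO). Among these, cluster 20, with *Cga* and *Pomc* among its leading genes, held 4 control and 245 Eed-cKO cells, and cluster 25, led by *Ttr*, *Tshb* and *Kcne2*, held 0 and 61. An embryo's All-Hypo sum held 5055844 to 7328566 UMIs in control and 627508 to 5787326 in Eed-cKO, and the smallest, Eed-cKO embryo 9, had 208 All-Hypo cells. The largest library, from control embryo 5, held 1207 cells with a median of 2919 UMIs, against 163 to 465 cells in the others. Of 1128 pairs of libraries, 96 shared a cell barcode and none shared more than 2. In All-Hypo cells the 12 neuron markers were all found and summed to 9900 to 11300 CPM in control and 8480 to 9680 in Eed-cKO embryos. *Eed* itself was at 29.4, 32.9 and 33.8 CPM (lowest, median and highest embryo) in control and at 19.5, 22.7 and 27.9 in Eed-cKO. Its 3′ end lies outside the deleted exons, so these counts do not check the deletion.

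The RefSeq promoters (GRCm38.p6, 250 bases before to 50 after the start) of 4 of the members that changed are given here, 5′ to 3′ on the strand of the gene, since CpG-rich promoters are the usual sites of PRC2 in mammals. Capitals mark the letters CG, which read the same on both strands.
Prdm12: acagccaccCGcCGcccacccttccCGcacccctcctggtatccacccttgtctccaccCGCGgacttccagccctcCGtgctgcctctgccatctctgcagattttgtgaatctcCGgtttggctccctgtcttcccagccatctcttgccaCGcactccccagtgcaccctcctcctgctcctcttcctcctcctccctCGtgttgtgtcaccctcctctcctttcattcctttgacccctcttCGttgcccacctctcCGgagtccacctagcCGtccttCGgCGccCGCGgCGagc
Prdm13: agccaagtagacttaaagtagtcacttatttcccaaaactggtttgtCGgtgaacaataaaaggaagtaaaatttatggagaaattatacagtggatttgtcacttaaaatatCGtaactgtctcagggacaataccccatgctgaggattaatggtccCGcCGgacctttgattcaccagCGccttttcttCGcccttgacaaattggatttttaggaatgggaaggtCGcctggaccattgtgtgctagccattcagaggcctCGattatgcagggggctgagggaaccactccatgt
Prdm16: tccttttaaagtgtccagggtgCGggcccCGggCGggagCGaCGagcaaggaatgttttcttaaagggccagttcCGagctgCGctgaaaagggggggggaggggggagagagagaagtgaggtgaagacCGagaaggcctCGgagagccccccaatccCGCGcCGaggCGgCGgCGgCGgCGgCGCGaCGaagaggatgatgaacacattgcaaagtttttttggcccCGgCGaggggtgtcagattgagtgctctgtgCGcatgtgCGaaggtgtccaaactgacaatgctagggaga
Kdm7a: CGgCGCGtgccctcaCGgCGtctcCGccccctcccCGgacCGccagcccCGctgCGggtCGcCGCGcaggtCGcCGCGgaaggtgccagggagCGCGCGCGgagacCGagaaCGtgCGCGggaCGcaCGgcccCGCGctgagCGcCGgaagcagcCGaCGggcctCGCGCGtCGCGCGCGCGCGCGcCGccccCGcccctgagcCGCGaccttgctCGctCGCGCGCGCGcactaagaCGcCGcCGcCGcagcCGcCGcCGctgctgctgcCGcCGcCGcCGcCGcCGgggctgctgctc
They lie at chr2:31639787-31640086 on the + strand, chr4:21685914-21686213 on the - strand, chr4:154636824-154637123 on the - strand and chr6:39206724-39207023 on the - strand. The *Prdm12* window holds 17 CG pairs, that of *Prdm13* holds 8, that of *Prdm16* holds 24 and that of *Kdm7a* holds 65. Over all 32851 promoters of 300 bases the median was 7 CG pairs, 94.6% held at least 1 and 26.5% held 20 or more. Of the members, 53 genes had an entry, with 76 promoters, a median of 24 CG pairs and 60.5% at 20 or more. The windows of *Prdm12* and *Prdm13* thus held fewer CG pairs than the member median and more than that of all promoters, that of *Prdm16* stood at the member median, and that of *Kdm7a* above it. No histone or DNA methylation was measured in these data.

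In All-Hypo cells, 9 of the 63 members that passed the filter on low counts differed between Eed-cKO and control. Among them *Kdm7a*, *Kdm3a*, *Hdac5* and *Prdm16* rose, and *Prdm12*, *Prdm13*, *Hdac2* and *Setd1b* fell (edgeR quasi-likelihood test, adjusted p below 0.05 over all genes). This is 14.3% of the tested members, against 27.7% of the 12558 genes tested (15.3% higher and 12.4% lower in Eed-cKO). The median size of the log2 fold change was 0.10 over members and 0.18 over all genes, and 16 members had an unadjusted p under 0.05 (38.8% of all genes). Embryos of the genotypes did not overlap for 2 members, *Kdm7a* and *Prdm13* (background 6.68%). In sums over many cells, fewer cells of a type and less RNA per cell cannot be told apart.

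**Figure D1:**
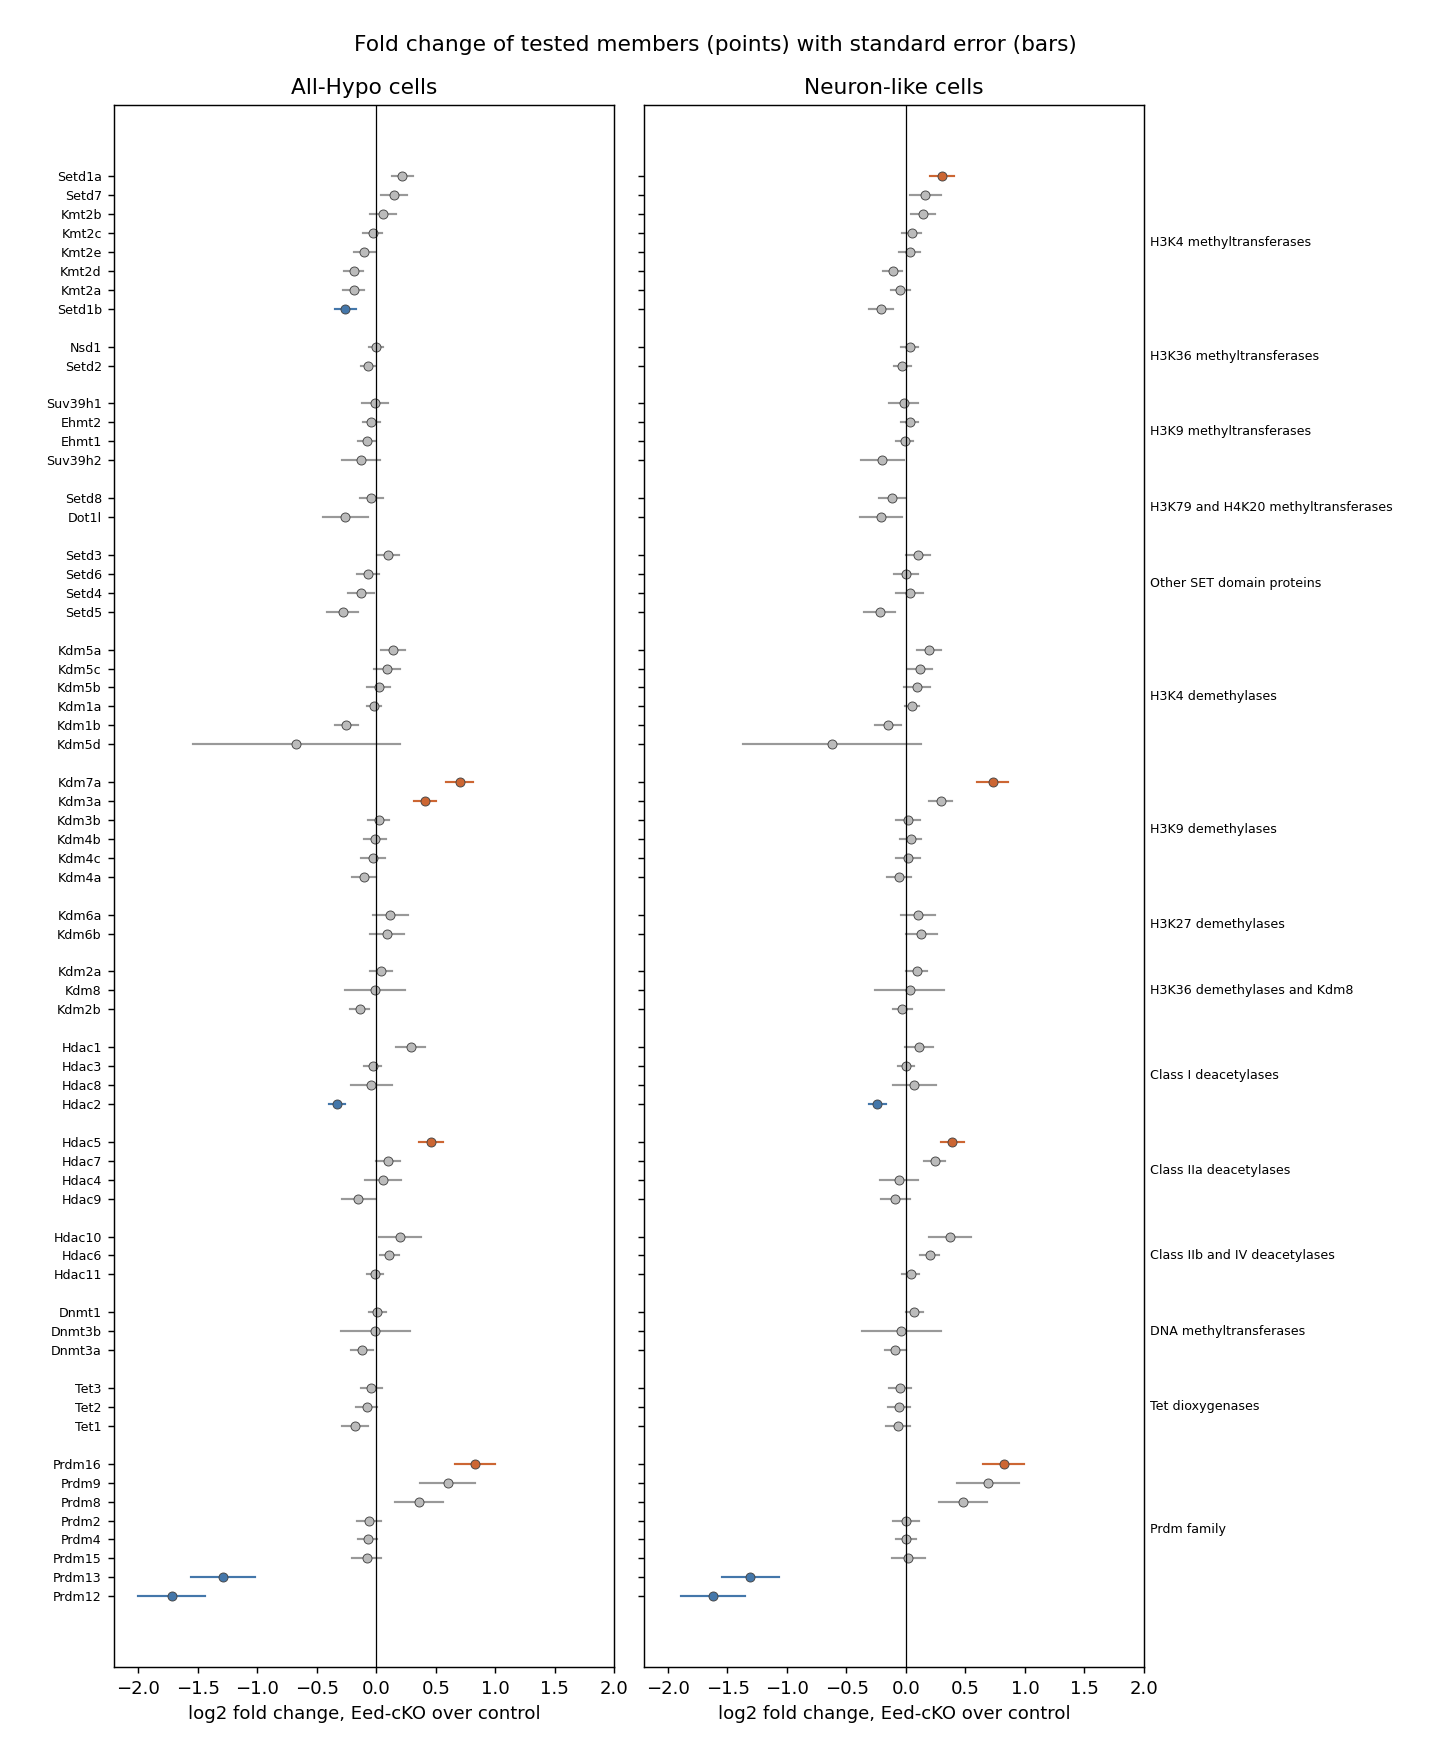
Log2 fold change, Eed-cKO over control, of tested members (points) with the standard error (bars), by role, in All-Hypo cells (left) and neuron-like cells (right). Orange points rose and blue points fell past an adjusted p of 0.05, and grey points did not pass. Most members lie near 0, and *Prdm12* and *Prdm13* lie farthest below it.

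Among the Prdm genes, 4 of the 9 tested members were called in All-Hypo cells, where 27.7% of all genes were called. *Prdm12*, a zinc finger factor needed in pain-sensing neurons and also found in hypothalamic neurons, was at 7.21, 14.8 and 20 CPM in control embryos (lowest, median, highest) and at 0.820, 4.99 and 12.6 in Eed-cKO. Of the 9 Eed-cKO embryos, 8 lay below every control, and embryo 9 alone reached into the control range, with 8 UMIs. *Prdm12* had 700 UMIs in all, 150 of them in Eed-cKO. The log2 fold change was -1.72 ± 0.28 (SE, n = 6 and 9, edgeR adjusted p = 0.000102). *Prdm13*, a partner of *Ptf1a* in the choice of inhibitory neuron fate, was at 5.13, 6.62 and 7.90 in control and at 0, 2.38 and 4.64 in Eed-cKO. Here the groups did not overlap, and the log2 fold change was -1.29 ± 0.27 (edgeR adjusted p = 0.00103). *Prdm13* had 332 UMIs, 92 of them in Eed-cKO, with 1 and 0 in Eed-cKO embryos 6 and 9.

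*Prdm16*, known in neural stem cells and brown fat, went the other way. It was at 8.75, 11.2 and 18.1 CPM in control and at 12.7, 21.6 and 29.1 in Eed-cKO, with 6 of 9 Eed-cKO embryos above every control (log2 fold change 0.83 ± 0.17, edgeR adjusted p = 0.00118). It is a low-count gene in these cells, with 1110 UMIs in all embryos, though *Prdm12* and *Prdm13* had fewer (700 and 332). *Prdm8*, which acts in neuron maturation, was at a mean of 13.3 ± 3.98 (SD) in control and 18.7 ± 8.56 in Eed-cKO, where embryo 9 alone reached 41.0, and did not pass (0.36 ± 0.20, edgeR adjusted p = 0.182). *Prdm2*, *Prdm4*, *Prdm9* and *Prdm15* had log2 fold changes of -0.08 to 0.60 and did not pass. *Prdm9* had 6 of 9 Eed-cKO embryos above every control (0.60 ± 0.23, edgeR adjusted p = 0.0523, 201 UMIs). It was called with doublets removed, under library size alone, on litter sums and without the clusters that took no name. *Prdm1*, *Prdm6*, *Prdm10* and *Prdm11* were below the filter, with 11, 15, 8 and 16 UMIs in control and 37, 22, 10 and 24 in Eed-cKO.

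**Figure D2:**
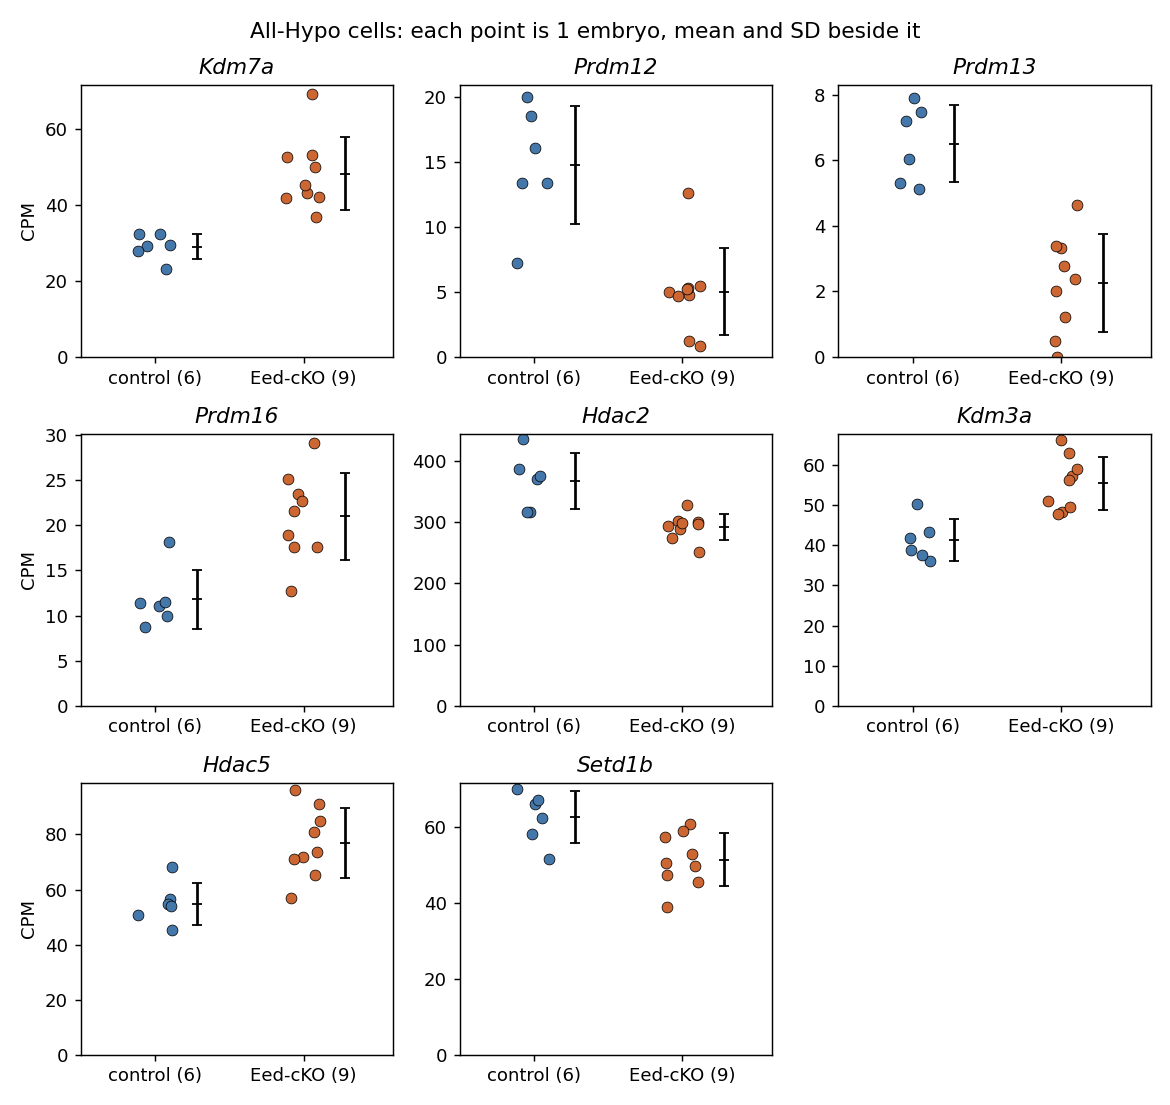
CPM in All-Hypo cells of 8 members that passed the test, in each of the 6 control (blue) and 9 Eed-cKO embryos (orange), with the mean and SD beside the points. *Kdm7a* and *Prdm13* have no overlap between genotypes, and Eed-cKO embryo 9 is the highest point of *Kdm7a* and of the Eed-cKO group of *Prdm12*.

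Of the H3K9 demethylases, 2 of 6 tested rose (15.3% of all genes did). *Kdm7a* encodes a demethylase of the lower methylation states of H3K9 and H3K27. It was at 23.2, 29.4 and 32.3 CPM in control and at 36.9, 45.4 and 69.4 in Eed-cKO, so that 9 of 9 Eed-cKO embryos lay above every control (0.70 ± 0.11, edgeR adjusted p = 4.48e-05). *Kdm3a*, an H3K9 demethylase that hypoxia and hormone receptors are known to engage, was at 36.2, 40.3 and 50.4 in control and at 47.8, 56.4 and 66.3 in Eed-cKO, with 6 of 9 above every control (0.41 ± 0.09, edgeR adjusted p = 0.00219). The other 4 (*Kdm3b*, *Kdm4a*, *Kdm4b* and *Kdm4c*) had log2 fold changes of -0.10 to 0.02, and *Kdm4d* was below the filter with 12 and 8 UMIs. The antisense gene 4930599N23Rik, which shares exon bases with *Kdm7a*, held 4 UMIs against 2621 of *Kdm7a*.

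Neither *Kdm6a* nor *Kdm6b*, the chief demethylases of trimethylated H3K27, passed the test. *Kdm6a* was at 19.4, 24.2 and 36.7 CPM in control and at 20.2, 25.2 and 36.6 in Eed-cKO (0.12 ± 0.15, edgeR adjusted p = 0.582). *Kdm6b* was at 92.2, 131 and 142 in control and at 81.6, 131 and 171 in Eed-cKO (0.09 ± 0.14, adjusted p = 0.681). The ranges nearly coincided for *Kdm6a*, whereas 3 Eed-cKO embryos lay above and 2 below every control for *Kdm6b*. Of the 6 H3K4 demethylases and the 3 members in the group of H3K36 demethylases and *Kdm8*, none was called (background 27.7%). *Kdm1b* had 5 of 9 Eed-cKO embryos below every control (-0.25 ± 0.10, edgeR adjusted p = 0.0732). It was called with doublets removed, without the largest library, on litter sums and with libraries as samples. *Kdm1a*, the flavin-dependent H3K4 demethylase, was at 201 to 252 in control and 208 to 238 in Eed-cKO (-0.02 ± 0.06, adjusted p = 0.857), and *Kdm2b*, which binds CG-rich DNA and recruits a variant polycomb complex, was at 39.3 to 50.6 and 35.6 to 50.2 (-0.14 ± 0.08, adjusted p = 0.214).

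Among deacetylases, 1 of 4 class I members fell and 1 of 4 class IIa members rose (12.4% of all genes fell and 15.3% rose). *Hdac2*, a catalytic subunit of the Sin3, NuRD and CoREST complexes, was at 317, 373 and 435 CPM in control and at 251, 297 and 328 in Eed-cKO (-0.33 ± 0.07, edgeR adjusted p = 0.00189). All but 1 of the Eed-cKO embryos lay below every control. *Hdac1*, its close paralogue, was at 20, 28.1 and 31.0 in control and at 23.7, 34.0 and 43.5 in Eed-cKO, with 6 of 9 above every control, and did not pass (0.29 ± 0.12, adjusted p = 0.0728). Libraries scaled by size alone put *Hdac1* past the threshold (0.34, adjusted p = 0.0446). *Hdac5*, a signal-responsive class IIa deacetylase of neurons and muscle, was at 45.3, 54.4 and 68.2 in control and at 57.0, 73.5 and 96.3 in Eed-cKO, with 7 of 9 above every control (0.46 ± 0.10, edgeR adjusted p = 0.00237). *Hdac3*, *Hdac8*, *Hdac4*, *Hdac7*, *Hdac9* and the 3 class IIb and IV members had log2 fold changes of -0.15 to 0.20 and did not pass.

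Of the 8 H3K4 methyltransferases, 1 fell (12.4% of all genes did). *Setd1b*, a catalytic subunit of a Set1 complex, was at 51.5, 64.2 and 70.1 CPM in control and at 39.0, 50.4 and 60.7 in Eed-cKO, with 5 of 9 below every control (-0.26 ± 0.09, edgeR adjusted p = 0.0380). Its call held in 6 of the 15 fits that left out 1 embryo and was lost without control embryo 1, 4 or 6 or Eed-cKO embryo 1, 4, 6, 7, 8 or 9 (highest adjusted p = 0.0822). Its paralogue *Setd1a* was at 23.5, 24.7 and 34.3 in control and at 25, 31.6 and 34.1 in Eed-cKO (0.22 ± 0.09, adjusted p = 0.0902). *Kmt2e*, an inactive relative with the most UMIs of the group, gave -0.10 ± 0.09 (adjusted p = 0.401), and *Kmt2d* gave -0.19 ± 0.08 (adjusted p = 0.0832). *Kmt2d* was called by DESeq2, on litter sums, without the largest library, with libraries as samples and without control embryo 5 or Eed-cKO embryo 9.

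None of the H3K36, H3K9, H3K79 and H4K20 methyltransferases or the other SET domain proteins was called, 12 genes in all (background 27.7%). *Nsd1* and *Setd2*, which write H3K36 methylation, gave 0.00 ± 0.06 and -0.07 ± 0.06. *Ehmt1* and *Ehmt2*, the paired enzymes of H3K9 dimethylation, gave -0.08 ± 0.07 and -0.04 ± 0.07. *Suv39h1*, an enzyme of constitutive heterochromatin, gave -0.01 ± 0.11, and *Dot1l*, the H3K79 enzyme, gave -0.26 ± 0.19 (edgeR adjusted p = 0.347). The adjusted p of these 12 genes was 0.113 or higher.

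None of the 6 tested DNA methylation enzymes was called over all embryos (background 27.7%). *Dnmt1*, the maintenance enzyme, was at 85.8, 95.5 and 105 CPM in control and at 84.1, 96.9 and 115 in Eed-cKO (0.01 ± 0.07, edgeR adjusted p = 0.947). *Dnmt3a*, the main de novo enzyme of the brain, was at 139, 170 and 224 in control and at 142, 160 and 183 in Eed-cKO (-0.12 ± 0.09, adjusted p = 0.347). In female embryos alone (2 control, 5 Eed-cKO) *Dnmt3a* was called lower (-0.41, edgeR adjusted p = 0.0193). With libraries as samples *Dnmt3a* (-0.14, edgeR adjusted p = 0.0409) and *Tet1* (-0.20, adjusted p = 0.0472) were called lower. That fit treats libraries of 1 embryo as independent, which they are not, and it called 44.8% of all genes. *Dnmt3b*, the de novo enzyme of earlier embryos, was at 1.90 to 4.93 and 1.23 to 6.15 (-0.01 ± 0.29, adjusted p = 0.988). The Tet dioxygenases *Tet1*, *Tet2* and *Tet3* gave -0.18 ± 0.11, -0.08 ± 0.09 and -0.04 ± 0.09, with adjusted p of 0.227 to 0.800. The precision of these values, apart from *Dnmt3b*, was an SE of 0.07 to 0.11 on the log2 scale.

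Members differed among cell kinds of control embryos. Kinds were named from marker lists in 27 clusters made with the members left out of the clustering genes, and levels by kind are CPM without TMM, as mean ± SD over 6 embryos and with no test. Of the 68 members, 17 had their highest mean in neuron-like cells, 21 in cycling progenitor-like, 16 in astrocyte-like and 14 in non-neural cells (endothelial-, pericyte-, leptomeningeal- and microglia-like together). The tally covers members with few UMIs, such as *Prdm11* (2 in cycling progenitor-like cells) and *Kdm4d* (1 in astrocyte-like cells). Near ties count too, such as *Setd2* at 93.5 in cycling progenitor-like and 92.5 in neuron-like cells. It was not made over all genes, and the cycling progenitor-like sums held the fewest UMIs of these kinds. *Hdac2* was highest in neuron-like cells (373 ± 33.0) and lowest in non-neural cells (141 ± 27.8), ranges that did not overlap. *Dnmt1* was highest in cycling progenitor-like cells (183 ± 31.7, against 93.6 ± 8.81 in neuron-like cells), a cluster that oligodendrocyte precursor genes *Gpr17* and *Sox10* also led. *Kdm3a* was at 32.3 ± 5.31 in neuron-like cells, lower than the 125 ± 43.9 of astrocyte-like, 151 ± 139 of cycling and 73.6 ± 19.1 of non-neural cells, which overlapped.

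*Prdm16* stood at 37.5 ± 13.6 in astrocyte-like and 9.45 ± 2.15 in neuron-like cells. *Kdm7a* was at 24.6 ± 3.20 in neuron-like, 54.3 ± 32.1 in astrocyte-like and 85.4 ± 33.4 in non-neural cells, and the latter ranges overlapped. *Prdm1*, *Dnmt3b* and *Prdm6* were mainly non-neural (34.3 ± 18.6, 19.8 ± 6.70 and 19 ± 25.9, against 0.167 ± 0.152, 2.81 ± 0.983 and 0.430 ± 0.345 in neuron-like cells). *Prdm12*, *Prdm13* and *Prdm8* had their highest means in neuron-like cells, at 15.6 ± 4.70, 6.79 ± 1.39 and 13.3 ± 4.29, with 0 UMIs in the 119 control cycling progenitor-like cells. The other kinds held few UMIs of them: *Prdm12* was at 5.88 ± 11.5 in non-neural cells (11 UMIs) and *Prdm13* at 3.82 ± 8.13 in astrocyte-like cells (5 UMIs), and both ranges overlapped the neuron-like ones.

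**Figure D3:**
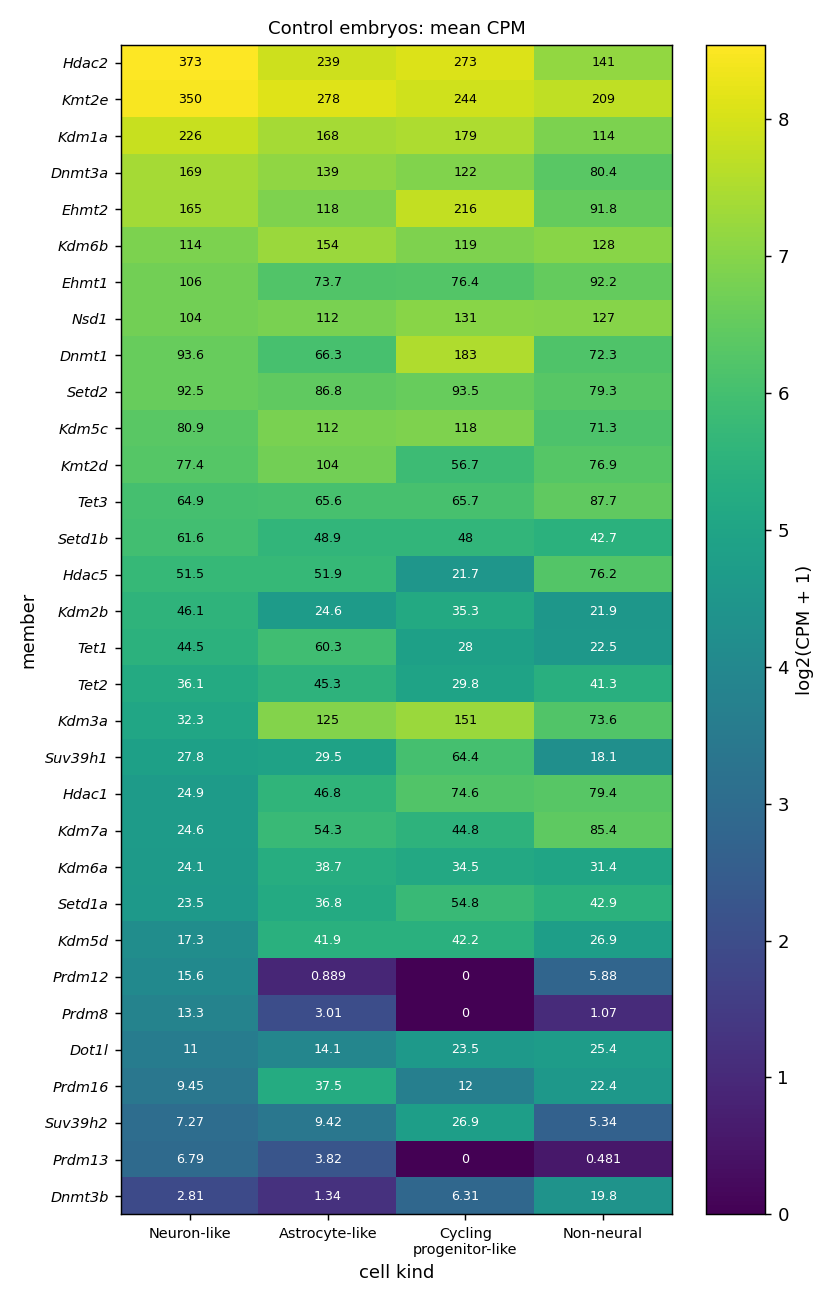
Mean CPM in control embryos (numbers) of 32 members named by a fixed rule in 4 cell kinds, coloured by log2(CPM + 1). Read across a row: *Hdac2* and *Prdm12* are highest in neuron-like cells, *Prdm16* in astrocyte-like cells, *Dnmt1* in cycling cells and *Dnmt3b* in non-neural cells.

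Markers of these kinds differed between genotypes in All-Hypo cells. All 10 cycling progenitor markers rose (summed level 47.5 to 99.2 CPM in control, 70.5 to 327 in Eed-cKO), as did 9 of 12 astrocyte markers (978 to 2530 and 1310 to 2840) and 5 of 8 tanycyte markers (53.2 to 91.8 and 157 to 251), while 1 astrocyte and 4 of 12 neuron markers fell. Of the vascular leptomeningeal markers 5 of 6 tested rose (193 to 291 and 366 to 734), of the pericyte or smooth muscle markers 4 of 4 (7.69 to 19.5 and 42.6 to 127), of the endothelial markers 1 of 2 (17.8 to 27 and 30.9 to 72.6) and of the pituitary markers 3 of 3 (71.4 to 132 and 152 to 636). These 4 sums did not overlap between genotypes, and neither did those of the tanycyte and neuron markers. The part of these kinds in the member results was not tested. Without the clusters that took no name, 8 members were called (17.3% of all genes, against 27.7% with them). Of these 8, 7 were among the 9, and *Setd1b* was not called (-0.22, edgeR adjusted p = 0.141). In 7 of the 22 All-Hypo clusters over 75% of the cells came from 1 genotype (2242 control and 2633 Eed-cKO cells in them). Without these, *Kdm7a*, *Hdac5* and *Prdm13* were the 3 members called in All-Hypo cells, and 11.7% of all genes were called. *Prdm12* then gave -0.75 (edgeR adjusted p = 0.138) and *Prdm16* 0.20 (adjusted p = 0.579). *Hdac2*, *Kdm3a* and *Setd1b* gave -0.22, 0.25 and -0.15 and did not pass either.

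In the 9828 neuron-like cells, 7 of 62 tested members were called (11.3%, against 15.2% of all genes, 7.91% higher and 7.26% lower). *Kdm7a* (20.2 to 29.6 CPM in control, 31.6 to 71.3 in Eed-cKO, 0.73 ± 0.13), *Prdm16* (7.48 to 13.6 and 10.8 to 24.8, 0.82 ± 0.17) and *Hdac5* (44.9 to 64.5 and 52.7 to 88.9, 0.39 ± 0.10) rose. *Prdm12* (-1.62 ± 0.27), *Prdm13* (-1.31 ± 0.24) and *Hdac2* (-0.24 ± 0.07) fell. *Hdac2* lost its call without control embryo 2 (adjusted p = 0.0781). Without the clusters mostly of 1 genotype, *Kdm7a*, *Hdac5* and *Prdm13* were called, and 7.75% of all genes were. Not called then were *Prdm12* (-0.63, edgeR adjusted p = 0.244), *Prdm16* (0.34, adjusted p = 0.289), *Hdac2* (-0.19, adjusted p = 0.0982) and *Setd1a* (0.37, adjusted p = 0.0559). *Setd1a* rose (22.4 to 26.6 and 19.8 to 35.8, 0.30 ± 0.10, edgeR adjusted p = 0.0399), a call kept in 4 of the 15 fits without 1 embryo and lost without control embryo 1, 2, 3, 4 or 6 or Eed-cKO embryo 1, 2, 3, 5, 6 or 8. *Kdm3a*, called in All-Hypo cells, did not pass here (0.29 ± 0.10, edgeR adjusted p = 0.0572), though libraries scaled by size alone put it past the threshold. It did not pass in astrocyte-like (-0.40 ± 0.24), cycling progenitor-like (0.20 ± 0.32) or non-neural cells (0.41 ± 0.20) either. In neuron-like cells the genotypes did not overlap for *Kdm7a* and *Prdm13* (background 3.59%). Different clusters made up the class: cluster 0, led by *Tfap2b* and Hox genes, held 16 control and 1503 Eed-cKO cells, and cluster 1, led by *Sp8* and *Pax6*, held 1056 and 131. Cluster 4 had *Pomc*, a gene on the pituitary list, and no neuron marker among its 10 leading genes. Without this cluster the other 6 members were called (14.6% of all genes) and *Setd1a* was not (0.27, edgeR adjusted p = 0.105).

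In the 594 astrocyte-like cells, 1 of 59 tested members was called (background 7.77%). *Kmt2d*, an H3K4 monomethyltransferase of enhancers, was at 68.3, 107 and 135 CPM in control and at 23.3, 55.1 and 98.5 in Eed-cKO, with overlapping groups (-0.94 ± 0.26, edgeR adjusted p = 0.0139, 146 and 75 UMIs). The genotypes did not overlap for *Kmt2e* (251 to 318 and 140 to 236), which did not pass (-0.44 ± 0.17, adjusted p = 0.108), and 1.52% of all genes did not overlap. In the 283 cycling progenitor-like cells (6 embryos of each genotype) 0 of 55 tested members were called by edgeR and 2 had an unadjusted p under 0.05, *Setd5* and *Kdm5b* (background 4.12% called, 14.5% unadjusted). *Kdm7a* did not pass in astrocyte-like (0.19 ± 0.32, edgeR adjusted p = 0.839) or cycling progenitor-like cells (-0.13 ± 0.51, adjusted p = 0.951). Tanycyte markers in the astrocyte-like cells summed to 101 to 237 CPM in control and 339 to 1490 in Eed-cKO embryos (3 of 7 tested rose, 1 fell), and vascular leptomeningeal markers to 118 to 328 and 483 to 707 (5 of 6 tested rose). Their part in the *Kmt2d* result was not tested.

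In the 827 non-neural cells, which Sox1-Cre is not meant to reach, 1 of 61 tested members was called (background 2.82%, 6 control and 8 Eed-cKO embryos). *Kdm7a* was at 38.8, 88.8 and 122 CPM in control and at 136, 185 and 265 in Eed-cKO, with no overlap (background 1.25%, 1.19 ± 0.23, edgeR adjusted p = 0.00577). The summed vascular leptomeningeal markers were at 978 to 16100 in control and 15100 to 28500 in Eed-cKO, and these cells were 89 of 347 control and 268 of 480 Eed-cKO non-neural cells. Without the leptomeningeal-like clusters edgeR called no member (6 control and 7 Eed-cKO embryos, 0.0542% of all genes called), and *Kdm7a* gave 0.47 (adjusted p = 0.842). Within the larger leptomeningeal-like cluster *Kdm7a* was at 165 ± 57.2 in 3 control and 304 ± 107 in 7 Eed-cKO embryos, and in the endothelial-like cluster at 70.0 ± 44.7 and 109 ± 39.6 (n = 6 and 6).

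The genotype effects of 2 members differed between neuron-like and non-neural cells of the same embryos (background 1.84%). That of *Prdm16* was higher in neuron-like cells by 2.22 ± 0.58 on the log2 scale (edgeR, embryo as a block, adjusted p = 0.0496), and that of *Suv39h2*, an H3K9 methyltransferase, was lower by 2.08 (log2 difference -2.08 ± 0.50, adjusted p = 0.0322). *Suv39h2* rests on 8 control and 46 Eed-cKO UMIs in non-neural cells, and *Prdm16* on 31 and 17. Of the 14 fits without 1 embryo, 3 kept the call of *Prdm16* and 8 that of *Suv39h2*, and neither was kept without control embryo 2 or Eed-cKO embryo 4 or 5. *Prdm16* also differed between neuron-like and astrocyte-like cells (1.76 ± 0.40, adjusted p = 0.00386, background 3.59%). It was at 19.7 to 65.0 in control and 0 to 31.8 in Eed-cKO astrocyte-like cells (-1.0 ± 0.38, edgeR adjusted p = 0.108, 60 and 28 UMIs).

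Levels by cluster are given as mean ± SD over embryos with at least 10 cells there and with no test, since the clusters shown were chosen after their values were seen. *Prdm12* had 42.1% of its UMIs in cluster 1, where it was at 40.8 ± 19.3 CPM in control and 12.1 ± 15.7 in Eed-cKO (n = 6 and 6). In cluster 16, led by *Nr5a1* and *Fezf1*, genes of the ventromedial hypothalamus, it was at 55.7 ± 21.2 and 10.5 ± 9.78 (n = 6 and 6). In cluster 7 it went the other way, at 22.7 ± 17.6 and 38.4 ± 37.7 (n = 6 and 8). *Prdm13* was at 57.1 ± 18 and 17.3 ± 22.5 in cluster 16 and at 38.8 ± 23.7 and 16.1 ± 21.5 in cluster 7. Cluster 16 itself was 2.19 to 6.11% of All-Hypo cells in control and 0.586 to 2.07% in Eed-cKO embryos, and cluster 1 was 11.7 to 18.4% and 0.838 to 3.12%.

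*Prdm16* had 230 of its 1160 UMIs in cluster 0, all from Eed-cKO cells (29.8 ± 8.42 CPM, n = 9). Cluster 0 held 16 control and 1503 Eed-cKO cells. This cluster was at most 0.667% of All-Hypo cells in a control embryo against 20.4 to 26.8% in Eed-cKO. In cluster 9, led by *Dio2*, *Frzb* and *Rax*, *Prdm16* was at 53.9 ± 46.0 and 67.6 ± 20.4, and this cluster was 1.00 to 3.21% of All-Hypo cells in control and 4.69 to 9.62% in Eed-cKO. *Kdm7a* in cluster 9 was at 119 ± 36.3 and 134 ± 32.5, and *Prdm8* in cluster 11, led by *Neurod6* and *Neurod2*, at 118 ± 30.5 and 129 ± 59.0.

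**Figure D4:**
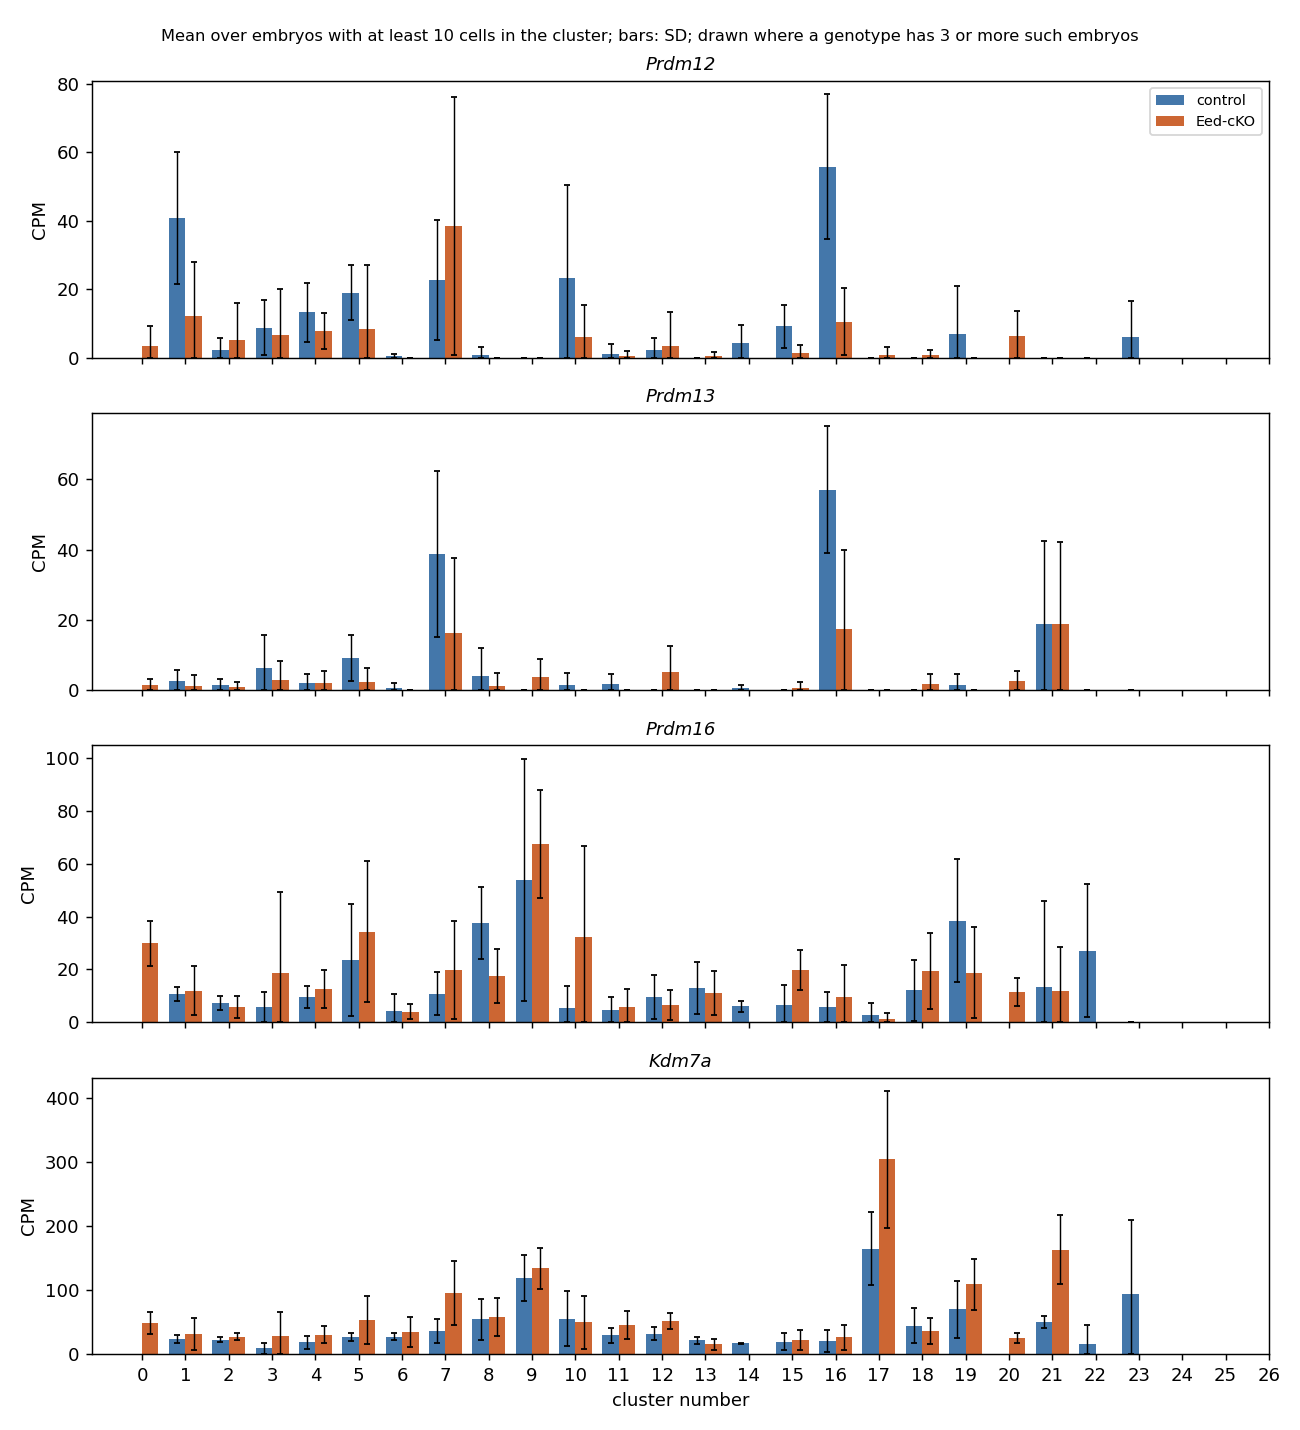
Mean CPM of *Prdm12*, *Prdm13*, *Prdm16* and *Kdm7a* in each numbered cluster, over control (blue) and Eed-cKO embryos (orange) with at least 10 cells there. Error bars are SD, with the lower end stopped at 0, and a bar is drawn where 3 or more embryos qualify. *Prdm12* and *Prdm13* are tallest in cluster 16 of control embryos, and *Kdm7a* in the leptomeningeal-like cluster 17.

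The sexes were not balanced between genotypes, and 5 members lie on the X and 1 on the Y chromosome. In a model with genotype and sex, *Kdm5d*, the Y-linked H3K4 demethylase, was the 1 member called (background 0.0319%): 1122 UMIs in 8 male embryos and 0 in 7 female embryos, at least 302-fold higher in males against a floor of 3 UMIs over the female group. *Kdm6a* and *Kdm5c* are X-linked genes known to escape X inactivation. *Kdm6a* was at 25.2 to 36.7 CPM in females and 19.4 to 24.5 in males, without overlap (background 0.0478%), and did not pass (log2 difference 0.55 ± 0.10, edgeR adjusted p = 0.0658). *Kdm5c* was at 83.6 to 105 in females and 63.2 to 94.7 in males, with overlap (0.37 ± 0.08, adjusted p = 0.323). For the difference of the genotype effect between the sexes, edgeR called 0 of 63 members (background 0%), and 7 had an unadjusted p under 0.05 (background 4.45%), among them *Dnmt3a* (-0.49 ± 0.16, p = 0.00522, adjusted p = 0.977).

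**Figure D5:**
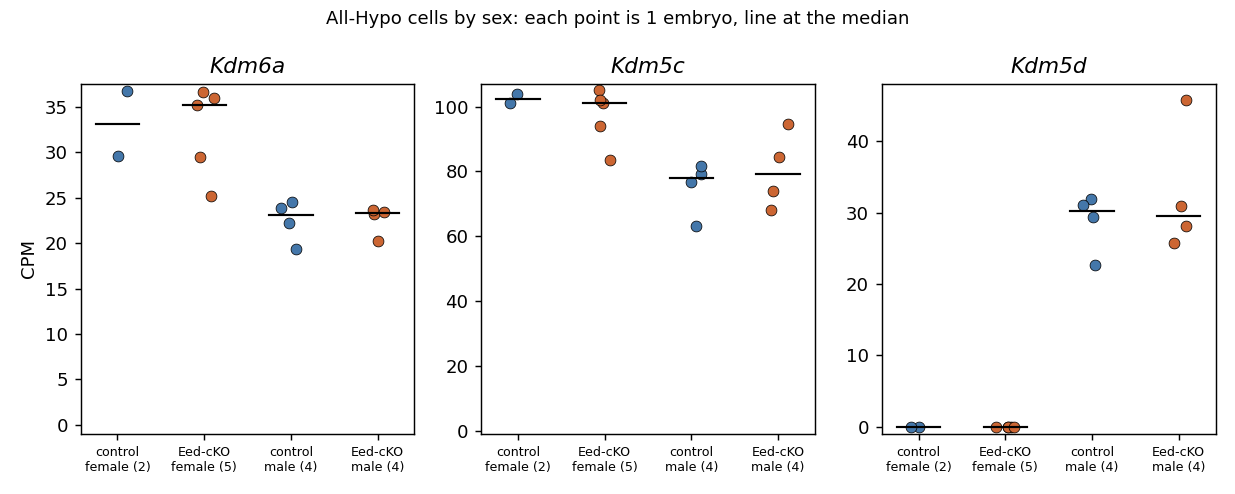
CPM of *Kdm6a*, *Kdm5c* and *Kdm5d* in All-Hypo cells of each embryo, by genotype and sex, with a line at the median. *Kdm5d* is at 0 in all 7 female embryos, and the female embryos lie above the male ones for *Kdm6a* in both genotypes.

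Genes that work with these members were also counted in All-Hypo cells. Of 68 tested partners and related enzymes, 9 rose and 1 fell (14.7%, against 27.7% of all genes). None of the 10 partners of H3K4 methyltransferase complexes was called, with log2 fold changes of -0.14 to 0.05. Of 14 tested deacetylase complex partners, *Gatad2a* of the NuRD complex rose (0.36 ± 0.10) and *Chd3*, a NuRD remodeller, fell by 0.33. Of 10 genes listed as readers and helpers of DNA methylation, *Uhrf2*, *Mbd3* and *Hells* rose (0.24, 0.38 and 0.65). *Mbd3* is itself a subunit of the NuRD complex. *Mecom*, also known as *Prdm3*, was outside the symbol rule and showed the largest change of these lists, with 0.316 to 1.35 CPM in control and 1.48 to 8.62 in Eed-cKO (2.58 ± 0.31, edgeR adjusted p = 3.2e-06). All control embryos lay below the filter level (a median log-CPM of 1.5), so *Mecom* entered the test only through Eed-cKO embryos. Its p-value is therefore not independent evidence of the rise. *Jmjd1c*, *Jmjd6*, *Kat5* and *Sirt3* rose by 0.33, 0.24, 0.27 and 0.30.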

How the data were processed

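Single-cell RNA was measured in 48 libraries of embryonic hypothalamus. The authors deposited the raw UMI counts of every gene in every cell as 1 table, produced by SureCell RNA Single-Cell, STAR 2.5.2b and SAMtools 1.3 on mm10 per the submitters' processing notes and methods, after cells with few UMIs or genes were removed. Whether counting used strand is not given in the sources used here, and 24 of the 68 members share exon bases with an antisense gene and 4 with a gene on the same strand (GENCODE vM21).

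Clustering of the deposited counts used scanpy 1.11.5, with leidenalg 0.10.2 for the Leiden step (scaled to 10000, 2000 variable genes without the members, 30 components, 15 neighbours, resolution 1, seed 0), and a cluster took its name from at least 3 markers raised 2-fold and found in 10% of cells. Cell names rest on these rebuilt clusters. Doublets were scored with Scrublet and removed only as an alternative. Embryos with at least 10 cells entered a test, made on their summed counts by edgeR 4.0.16 under R 4.3.3 (quasi-likelihood, TMM, Benjamini-Hochberg over all genes at 0.05). A gene was tested with 15 UMIs or more in all, at least 2 of them in a single embryo, and a log-CPM whose median reached 1.5. SE is the fold change over the square root of F. The p-values measure the spread between embryos, except in alternatives that took libraries or litter sums as samples. Libraries of 1 embryo are not independent, so p-values from them are too small to rest on. DESeq2 1.42.0 and limma 3.58.1 (TREAT at 0.18) were alternatives.

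The members and lists were chosen with earlier results of these data known. Named members were those called or not overlapping in a main fit, the 5 with most UMIs, and a fixed list of 23 whether or not they passed. Alternatives covered normalization, filter, tool, replicate, sex, clusters, doublets and each embryo left out, and those on the largest library, cluster removal and sex within neurons were chosen after seeing the data. Proteins and chromatin were not analysed here, and 1 called member is counted but not reported here.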

Additional observations from a re-analysis of the deposited data

Results flagged for a closer look

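Among 64 sets of 1 named member in 1 genotype (All-Hypo cells, CPM), 7 held an embryo far from the rest by Dixon's ratio at 95%, and chance flags about 1 in 20. Eed-cKO embryo 9, the smallest with 208 All-Hypo cells, gave 5 of them: *Prdm12* at 12.6 (others 0.820 to 5.44), *Kdm7a* at 69.4 (36.9 to 53.3), *Prdm8* at 41.0 (12.1 to 18.2), *Kmt2d* at 97.9 (60.4 to 77.6) and *Ehmt1* at 78.9 (99.2 to 109). The *Prdm12* value of embryo 9 rests on 8 UMIs. Without this embryo *Kmt2d* passed the test in All-Hypo cells (-0.22, edgeR adjusted p = 0.0214). The other two were *Prdm16* at 18.1 in control embryo 1 (others 8.75 to 11.5) and *Suv39h2* at 11.5 in control embryo 6 (6.42 to 8.07).

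Genotype effects differed between cell kinds in 3 tests. The effect on *Prdm16* was higher in neuron-like than in non-neural cells by 2.22 and than in astrocyte-like cells by 1.76 on the log2 scale, and that on *Suv39h2* was lower in neuron-like than in non-neural cells (log2 difference -2.08). Both members had few UMIs in non-neural cells (31 control and 17 Eed-cKO for *Prdm16*, 8 and 46 for *Suv39h2*). The causes of these differences were not tested.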

How the results depend on the processing

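In All-Hypo cells, where 9 members were called, 3 were called without the clusters mostly of 1 genotype, 5 in female embryos alone (2 of them among the 9, the others *Dnmt3a*, *Kmt2a* and *Setd5*), 4 in male embryos alone, 5 by limma-voom TREAT on embryo sums and 17 with libraries as samples. The other 13 alternatives gave 7 to 12 members and 17.3% to 32.0% of all genes. DESeq2 gave 10 members, 12 were called without the largest library, and leaving out 1 embryo gave 8 to 11. *Kdm7a* was called in each of these 33 fits (0.51 to 0.80). In neuron-like cells, 7 members (15.2% of all genes) became 3 without the clusters mostly of 1 genotype (7.75% of all genes). Male embryos alone gave 3 there (3.4% of all genes), and fits without 1 embryo gave 6 to 8. In non-neural cells 1 (2.82% of all genes) became 0 without the leptomeningeal-like clusters (0.0542% of all genes), and 1 to 2 without 1 embryo. The ranges without 1 embryo were 1 to 2 in astrocyte-like and 0 to 0 in cycling progenitor-like cells, 0 to 2 for neuron-like against non-neural cells and 1 to 3 for neuron-like against astrocyte-like cells. Neuron-like against non-neural cells gave 1 call in place of 2 with a minimum of 20 cells (1.72% of all genes, against 1.84%). Counts called for sex and for genotype by sex were the same under library size alone and the total-count filter. For the named members, 1242 fits kept the direction and threshold side of the reported value, 83 lost a call and 14 gained one. No called value changed sign. Calls gained by members outside the named ones, such as *Kdm1b* and *Prdm9*, are not in this tally. The causes of lost calls were not tested. No paired analysis was possible because no embryo or litter held both genotypes and replicate numbers were given in accession order. Depth limits the rarer kinds: the cycling progenitor-like sums held 495446 UMIs in control and 935153 in Eed-cKO in all, against 33326422 and 25471786 in neuron-like cells.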
